A study of Caenorhabditis elegans with 2 samples.

Results

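Of the 5000 regions with the highest signal value in the pooled list of an HLH-6 chromatin immunoprecipitation series, 262 lay in a promoter shared by 2 divergent protein-coding genes. The pooled list holds 30000 regions in all. A member was selected on its pooled signal value, which had to place it among the 5000 strongest, and on the place of its summit, the base with the highest signal. The summit had to lie from 1000 bp upstream to 200 bp downstream of a start site of at least 1 plus-strand and at least 1 minus-strand coding gene. The minus-strand start site had to be at the lower coordinate, so that the genes point away from each other, and the summit had to be more than 200 bp from any tRNA, snoRNA or snRNA gene. The same position rule without the limit on rank was met by 988 of the 30000 regions (3.29%). A coding gene on each strand was thus required by the rule. In 241 members (92.0%) the window held exactly 1 coding gene on each strand, with no further one. The 262 members fall on 248 distinct gene pairs and 495 distinct genes, since 14 pairs had 2 members each and mdt-26 belonged to 2 pairs.

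HLH-6 tagged with GFP and FLAG at its C terminus was pulled down with an antibody against GFP from whole Caenorhabditis elegans, and the DNA was sequenced (ChIP-seq). The single group comprised 2 biological replicates of strain RW10702, hermaphrodite animals at the late embryonic stage, 3.5 hours after they were synchronized by bleaching of eggs. Both replicates carry the tagged HLH-6 transgene, and the labels name a control experiment that was not analysed here. The animals were used whole, so the signal of different cell types cannot be told apart, and neither the promoter of the transgene nor its copy number is given in the sources used here.

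In the compact worm genome, neighbouring genes on opposite strands often start within a short stretch of DNA and share it as their promoter. Such bidirectional promoters often serve genes needed in most cells. HLH-6 is a basic helix-loop-helix (bHLH) factor of the achaete-scute class, best known for its work in pharyngeal gland cells. bHLH proteins dimerize and bind the E-box, CANNTG, in which N is any base.

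Windows of 50 bp to either side of a summit are printed here because they show a sequence stretch that recurred in the strongest members. They are from the NCBI genome of WBcel235 (ce11), plus strand, 5′ to 3′. Capitals mark GCGGC followed by TTGC after 2 to 4 bases, on either strand (a minus-strand copy reads from GCAA to GCCGC). For ears-2/uncp-18 the whole stretch from the one start site to the other is given.
mlcd-1/idhg-1, chrIII:4568689-4568789: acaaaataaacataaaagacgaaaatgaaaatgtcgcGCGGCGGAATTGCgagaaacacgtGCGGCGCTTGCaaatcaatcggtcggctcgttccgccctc
ecps-1/atx-2, chrIII:10461248-10461348: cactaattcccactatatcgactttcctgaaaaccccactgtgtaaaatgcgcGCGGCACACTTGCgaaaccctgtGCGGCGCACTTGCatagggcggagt
ears-2/uncp-18, chrIV:390468-390560: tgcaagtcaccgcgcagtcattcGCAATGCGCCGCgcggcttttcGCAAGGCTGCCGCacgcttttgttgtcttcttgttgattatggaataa
Y22D7AL.10/hsp-60, chrIII:1619069-1619169: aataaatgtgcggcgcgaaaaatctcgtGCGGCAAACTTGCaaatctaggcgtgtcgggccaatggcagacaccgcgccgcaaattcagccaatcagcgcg
dvc-1/ima-1, chrV:11239342-11239442: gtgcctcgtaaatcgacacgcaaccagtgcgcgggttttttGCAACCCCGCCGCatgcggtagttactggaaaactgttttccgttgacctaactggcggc
erfa-3/math-33, chrV:11113321-11113421: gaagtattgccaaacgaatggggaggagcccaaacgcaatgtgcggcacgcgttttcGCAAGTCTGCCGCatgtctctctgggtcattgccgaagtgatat
The 3 strongest members each held 2 copies, and the other members shown held 1.

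Further summit windows of members, of the same genome and strand, show 4 other short sequences whose shares are given with the motif results. Capitals mark in turn the GAGA repeat (GAGAGA), the CA repeat (CACACA, here read on the other strand), the GC box (CCGCCC, likewise) and CTAGGCCA (likewise).
lir-3/sfxn-1.2, chrII:11185073-11185173: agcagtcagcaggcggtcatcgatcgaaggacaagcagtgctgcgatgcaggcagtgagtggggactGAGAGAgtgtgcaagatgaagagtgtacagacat
K01G5.10/tasp-1, chrIII:10759195-10759295: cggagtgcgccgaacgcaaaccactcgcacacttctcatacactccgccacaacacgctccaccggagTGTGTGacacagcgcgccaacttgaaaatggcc
B0495.9/sre-1, chrII:7708718-7708818: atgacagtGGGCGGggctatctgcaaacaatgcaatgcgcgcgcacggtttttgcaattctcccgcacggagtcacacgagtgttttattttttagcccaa
F01D4.5/ced-5, chrIV:10483861-10483961: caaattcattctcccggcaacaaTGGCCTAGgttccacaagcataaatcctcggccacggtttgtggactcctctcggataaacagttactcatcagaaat
Each sequence belongs to one of the strongest members with that motif whose window reached into neither paired gene.

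The highest signal value, a score per region deposited by the authors on a scale they do not state, was 353 at mlcd-1/idhg-1, with 188 in replicate 1 and 166 in replicate 2. mlcd-1 encodes malonyl-CoA decarboxylase and idhg-1 a subunit of the NAD-dependent isocitrate dehydrogenase of the citric acid cycle. The next member, ecps-1/atx-2, had 343 in the pooled list, 156 in replicate 1 and 187 in replicate 2. ecps-1 encodes a relative of the proteasome adaptor Ecm29, and atx-2 the worm ataxin-2, an RNA-associated protein. Both replicates ranked these regions high, and they ordered them differently. The summits lay 58 bp from the start site of idhg-1 and 91 bp from that of atx-2, and much farther from their partners, 609 bp from mlcd-1 and 747 bp from ecps-1.

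The third member had the narrowest promoter of the strongest 20. At ears-2/uncp-18 the signal value was 237 in the pooled list, 119.4 in replicate 1 and 113 in replicate 2, and the start sites are 92 bp apart with the summit 36 bp from ears-2 and 56 bp from uncp-18. ears-2 encodes a mitochondrial glutamyl-tRNA synthetase and uncp-18 a relative of syntaxin-binding protein 1. At vps-51/lin-35 it was 221 in the pooled list, 115 in replicate 1 and 102 in replicate 2. vps-51 acts in vesicle traffic, and lin-35 is the worm's retinoblastoma relative, a repressor of cell-cycle genes. At K01G5.10/tasp-1, beside the gene of the protease taspase, it was 220 in the pooled list, 102 in replicate 1 and 118.5 in replicate 2.

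The remaining 15 of the strongest 20 had pooled signal values of 218 at E04F6.6/pcrg-1 down to 153 at dad-1/tre-1. They included B0495.9/sre-1 (188), with the gene of a chemoreceptor-type protein. prp-19/K10D2.5 (187) holds the gene of a splicing factor. dnj-29/ndua-2 (178) pairs a J-domain cochaperone with a subunit of respiratory complex I. spd-5/npp-6 (173) pairs a scaffold of the centrosome with a nuclear pore protein. Y92H12BR.2/Y92H12BR.3 (169), rnf-121/C16C10.4 (168), Y41D4A.6/Y41D4A.4 (168) and cux-7/C07H6.2 (165) followed. nmad-1/hach-1 (161) pairs a DNA demethylase with a mitochondrial hydrolase of valine breakdown. Y22D7AL.10/hsp-60 (158) joins, in 1 promoter of 813 bp, the genes that RefSeq names as the mitochondrial 10 kDa heat shock protein and the chaperonin Hsp-60, which work together in protein folding. dvc-1/ima-1 (157) holds a DNA-dependent metalloprotease gene and that of an importin alpha. algn-13/R10D12.13 (155), fbxb-85/hex-3 (154) and dad-1/tre-1 complete the 20, dad-1 being a subunit of the oligosaccharyltransferase of the endoplasmic reticulum (ER) and tre-1 a trehalase. All 20 overlapped a region of the authors' optimal list, and membership of that list largely went with the pooled signal value that ranked them.

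**Figure D1:**
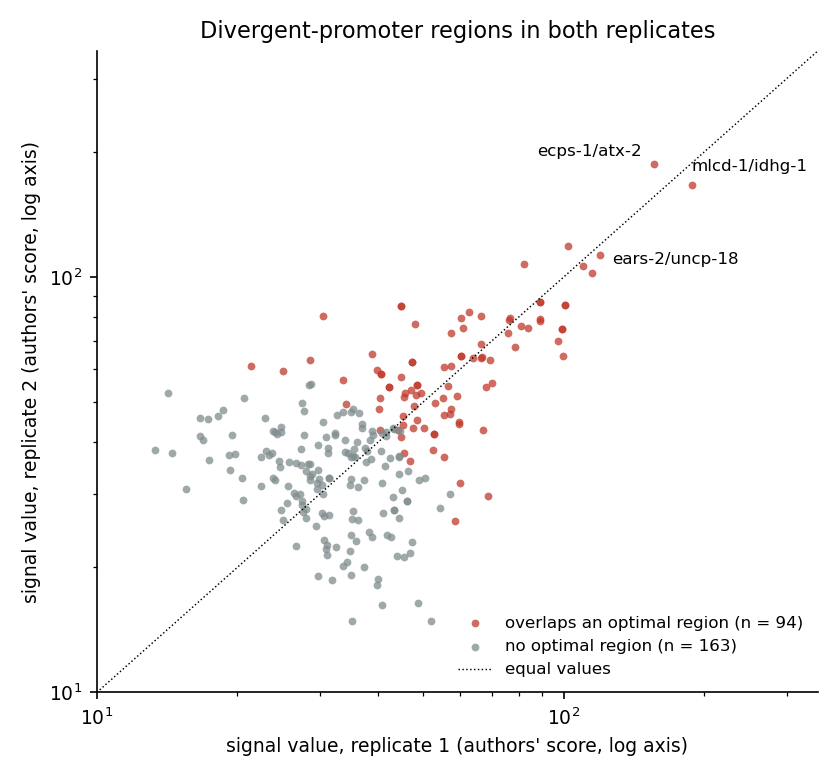
Signal value of each member in replicate 1 (x axis) and replicate 2 (y axis), both the authors' score on log axes. Points are the 257 members with a region in both lists, coloured by overlap with the optimal list, and the dotted line marks equal values. Members in the optimal list reach up to 188 in replicate 1 and 187 in replicate 2, while the others crowd below them.

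The pooled signal values of all members lay between 52.3 and 353, around a median of 69.8 and quartiles of 59.9 and 92.8. The median was 65.6 over the 1417 strong regions at promoters of coding genes on 1 strand only, 62.8 over the 2959 regions at neither kind of promoter, and 64.9 over all 5000. The other 362 of the 5000 lay within 200 bp of a short RNA gene, and 12 of these were otherwise placed as members. The signal value chose the members, so these figures are a description without a test. The limit fell between his-60/his-59 (52.3) and hpr-17/F32A11.1 (52.4), the last members inside, and rpl-1/Y71F9AL.9 (51.98) and Y54F10BM.13/ppm-1.D (51.8), the first regions outside. The −log10 q-value of the members, as deposited, ran from 1.12 to 2.63 with a median of 2.18.

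The optimal list, which the authors made from the replicates with IDR, which compares the ranks of regions, overlapped 94 of the 262 members (35.9%, exact 95% interval 30.1 to 42.01). Over all 5000 the share was 20.6%, over promoter regions of 1 strand 21.2% and over the other regions 13.3%. The 94 members fell on 84 distinct optimal regions. Not all of them had similar ranks in both replicates: srh-89/F25E5.1 ranked 11254 in replicate 1 and 345 in replicate 2. Membership of the list largely went with the pooled signal value. dnj-19/nhr-47 (85.8) was in it, and the next member, jmjd-4/mev-1 (84.9), was not. These pairs were chosen after their values were seen. A share of 77.9% (204 members) overlapped one of the 5000 strongest regions of replicate 1, against 70.5% of all 5000, and the same number overlapped one of the 5000 strongest of replicate 2, against 72.6% of all 5000. For 157 members (59.9%) both held, against 48.6% of all 5000, and for 11 neither did. These shares follow from the same reads as the pooled values, and nothing is read from them about the members.

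Some members had quite different values in the 2 replicates. The pooled value that chose the members comes from the same reads, so the choice itself shapes the correlation given below. How far it does so was not tested. Signal values ran from 13.3 to 188 with a median of 38.8 in replicate 1 (261 members) and from 14.8 to 187 with a median of 40.2 in replicate 2 (258 members). Across the 257 members with both values, Spearman's rho was 0.45 and Pearson's r of the log2 values 0.53, a correlation across regions that share their libraries and, in 26 members of each replicate, a region with another member. The log2 difference of replicate 2 from replicate 1 had a median of 0.05, quartiles of -0.27 and 0.39, and extremes of -1.80 and 1.89. ZC328.5/san-1, Y47D3A.14/aakb-2, fbxc-44/C16A11.2 and nmat-1/ucr-2.1 had no region in replicate 2, and scbp-2/vacl-14 had none in replicate 1. These 5 pairs are named after their values were seen, and their pooled values reached at most 72.5, at ZC328.5/san-1.

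Most summits lay between the 2 start sites. This held for 220 of 262 members (84.0%, exact 95% interval 78.96 to 88.2), while the rule also admitted summits up to 200 bp inside a gene. The nearer start site was a median of 137 bp from the summit (quartiles 63.3 and 215) and the farther one a median of 410.5 bp, and in 100 members (38.2%) the summit was within 100 bp of a start site. The nearer start site was that of the plus-strand gene in 144 members (55.0%, exact 95% interval 48.7 to 61.1). Of the 220 summits between start sites, 130 (59.1%) were in the middle 50% of the gap, and the median position was 51.6% of the way from the minus-strand start site. In gaps of 1000 bp or more the rule admits only summits between the start sites, and in the widest only those near the middle. The shares of 84.0% and 59.1% thus follow in part from the rule. The annotation put 180 summits in intergenic DNA (68.7%, against 33.6% of all 5000 strongest regions) and 29 in coding sequence (11.1%, against 29%). A further 21 were in untranslated regions (8.02%, against 4.06%) and 16 in introns (6.11%, against 25.96%). The other 16 were in non-coding RNA genes or pseudogenes (6.11%, against 7.36%). The rule limits where a member's summit can lie, so it bears on these shares, and no test was made.

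**Figure D2:**
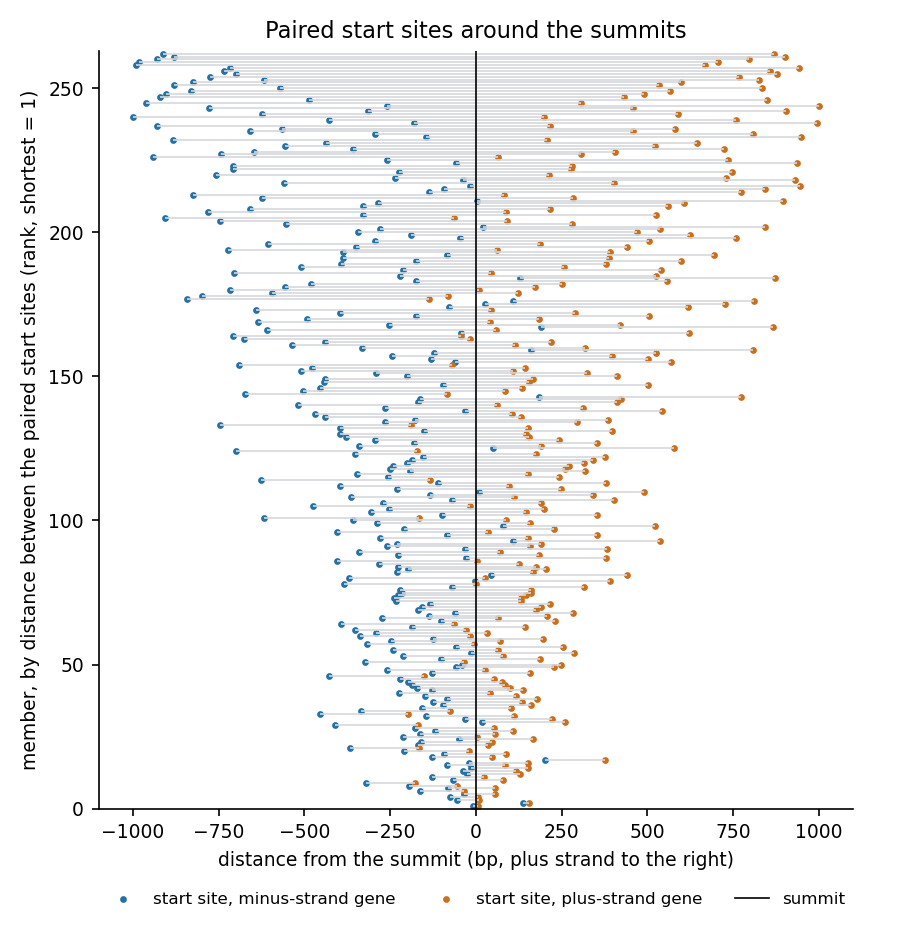
Start sites of the paired genes around each summit in bp (x axis), 1 row per member, ordered by the distance between the start sites (y axis, rank from 1 for the shortest). Blue points are minus-strand and orange points plus-strand start sites, the vertical line is the summit, and 220 of the 262 rows have the summit between their points.

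The start sites of a pair were a median of 548 bp apart (95% interval of the median 498 to 600), from 15 bp at F25H9.6/F25H9.7, chosen after its value was seen, to 1780 bp at both ztf-8/toc-1 and F49H6.12/F49H6.5, likewise chosen after their values were seen. Over the 2724 pairs of divergent coding genes up to 2000 bp apart in the annotation the median was 672 bp, and 239 of these pairs (8.77%) held a member between their start sites or within the admitted margin. A member was found in 30 of 411 gaps under 250 bp (7.30%), in 81 of 574 gaps of 250 to 500 bp (14.1%), in 99 of 882 gaps of 500 to 1000 bp (11.2%) and in 29 of 857 gaps of 1000 to 2000 bp (3.38%). Wide gaps offer less room where a summit is within 1000 bp of both start sites, so the rule itself limits them. Per kb of DNA that met the position rule for both genes, gaps with a member numbered 0.130, 0.184, 0.106 and 0.0601 in the same order of width.

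By chromosome, the share of divergent gaps with a member was 11.5% on I (63 members), 9.11% on II (49), 11.7% on III (49), 7.64% on IV (41), 5.35% on V (40) and 10.2% on X (20). Chromosome X held 6.86% of the annotated divergent gaps. The exact 95% interval of V (3.79 to 7.29) lay below those of I (8.79 to 14.8) and III (8.72 to 15.1), and no test was made between chromosomes. Of the 14 gene pairs with 2 members, dnj-29/ndua-2 had pooled values of 178 and 68.2 with summits in the same promoter, fib-1/mut-15 had 129 and 62.98, and lin-61/bub-1 had 96.4 and 64.4. In each of these pairs both pooled regions overlapped the same region of each replicate, so their replicate values are the same measurement. fib-1, chosen after its values were seen, encodes the nucleolar protein fibrillarin, and mut-15 acts in small RNA silencing.

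The summits were rich in G and C within promoters that were not. The GC content within 50 bp of a member's summit had a median of 48.5% (95% interval 47.5 to 49.5, range 19.8 to 71.3). At 100 bp to either side it was 37.6%, and at 500 bp to the lower and the higher coordinate it was 36.6% and 35.6%. The centres of the 1441 divergent gaps with no region in the pooled list had a median of 32.7%. Promoter regions of 1 strand had 50.5% at the summit and still 46.5% and 45.5% at 100 bp to the lower and the higher coordinate, and the other regions had 50.5%, 48.5% and 47.5%. GC was thus a little lower at the summits of divergent promoters than at those of the other kinds of region, and fell off over a shorter distance. The kinds of region also differed in place: summits lay in coding sequence in 11.1% of members, 19.97% of promoter regions of 1 strand and 37.7% of the other regions. The part of place in the GC values was not tested, and no test was made between the kinds of region.

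**Figure D3:**
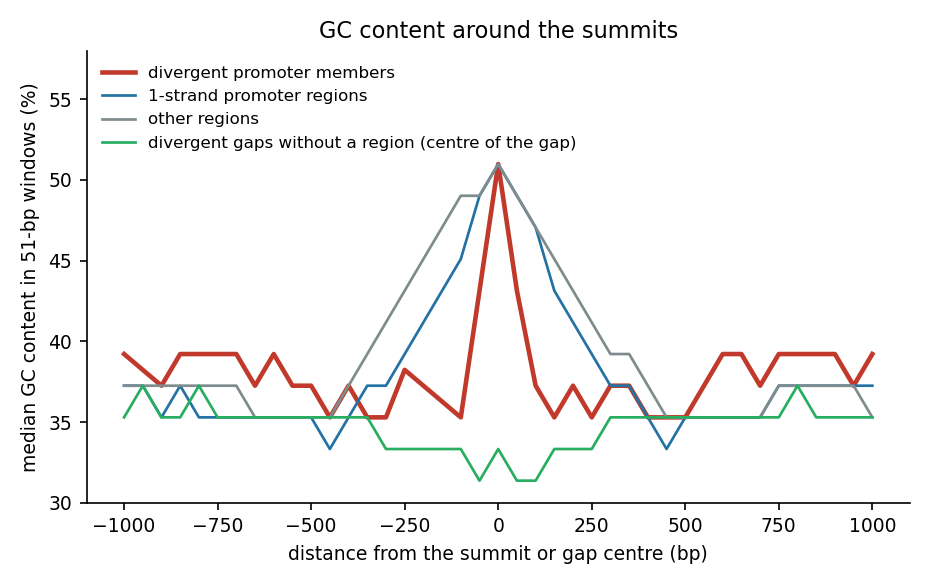
Median GC content in windows of 51 bp (y axis, percent) against distance from the summit, or from the centre of the gap, in bp (x axis). The red line is the 262 members, blue the 1417 promoter regions of 1 strand, grey the 2959 other regions and green the 1441 divergent gaps without a region, and the red line falls off within 100 bp on both sides while blue and grey decline over a longer distance.

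Of 8 short motifs sought on both strands within 50 bp of a point, 3 were more frequent at members' summits than in an equally wide window shifted by 500 bp to the higher coordinate, and 2 were less frequent (two-sided exact McNemar test over the 262 members, adjusted for the 8 motifs by the Benjamini-Hochberg method). The sites counted here are regions, not replicates, and members of 1 promoter are not independent. The farther start site was a median of 410.5 bp from the summit. In many members the flank therefore lay past the start site of a paired gene, outside the shared promoter. The part of this difference in place was not tested. The E-box, the site known for bHLH proteins, was not among the motifs that differed. It was present at 90 summits (34.4%, exact 95% interval 28.6 to 40.4) and in 81 flanks (30.9%, exact 95% interval 25.4 to 36.9), with 64 members holding it at the summit only and 55 in the flank only (exact p = 0.463, adjusted p = 0.530). The share was 32.8% in promoter regions of 1 strand, 37.1% in the other regions and 31.6% at the centres of gaps without a region. Members with an E-box had a median signal value of 72.5 and those without one 69.8. Of the 10 forms of the E-box, CAAGTG was found at 21 summits against 9 and 13 windows of the higher and lower flank, and CAAATG at 12 against 23 and 15; the forms were not tested.

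GC-rich and repeat motifs were more frequent at the summits. The GC box CCGCCC, the site known for Sp1-type zinc finger factors, was at 24 summits (9.16%) and in 1 flank (0.382%), a difference of 8.78 percentage points (exact McNemar, adjusted p = 6.54e-06). The CA repeat CACACA was at 37 summits (14.1%) and in 6 flanks (2.29%), with the same adjusted p of 6.54e-06 by the exact McNemar test. The GAGA repeat GAGAGA was also at 37 summits (14.1%), and in 14 flanks (5.34%; exact McNemar, adjusted p = 0.00281). In 85 members (32.4%) at least 1 of the 3 was within 50 bp of the summit. AT-rich motifs went the other way. The homeodomain core TAATTA was at 3 summits (1.15%) and in 20 flanks (7.63%; exact McNemar, adjusted p = 0.00130), and the TATA box TATAAA at 8 summits (3.05%) and in 22 flanks (8.40%; exact McNemar, adjusted p = 0.0201). The GATA core AGATAA was at 9 summits (3.44%) and in 17 flanks (6.49%; exact McNemar, adjusted p = 0.178, and 0.0102 in the alternative with the 449 members among the 10000 strongest regions), and the forkhead core GTAAACA at 3 of each (exact McNemar, adjusted p = 1). Since GC content is higher at summits than in flanks, it moves with these motifs, and its part in the differences was not tested.

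The calls of the CA repeat and the GC box held in all 12 alternatives run for the motifs, and the others rest more on the choice of regions. With the rule applied to replicate 1 alone, leaving out replicate 2, only these 2 of the 8 motifs passed, and the adjusted p of the exact McNemar test was 0.198 for GAGAGA, 0.381 for TAATTA and 0.114 for TATAAA. With replicate 2 alone the same count was 5. Among the 94 members in the optimal list it was 2 as well.

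**Figure D4:**
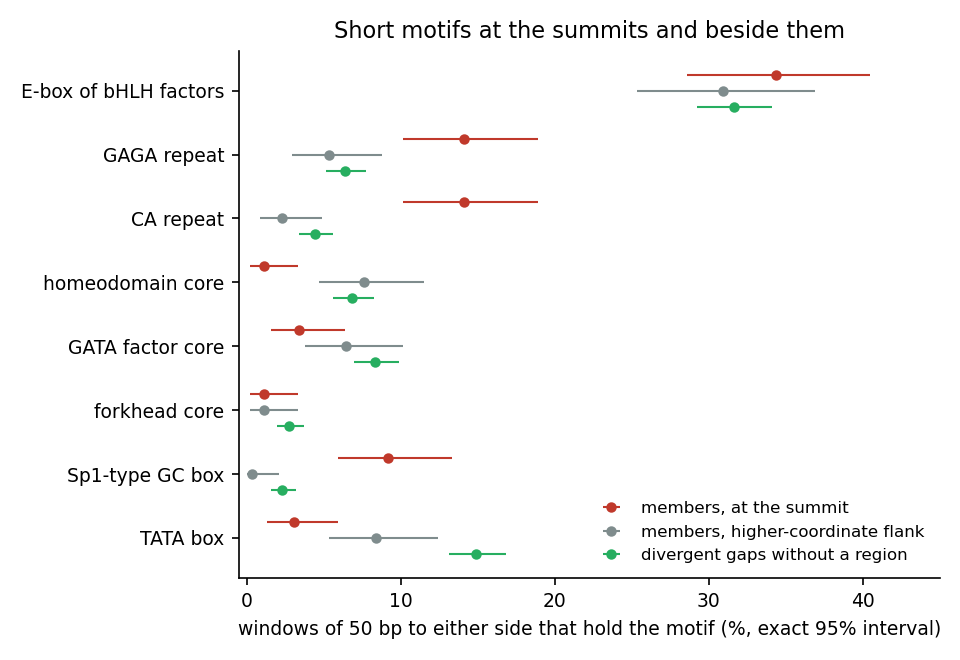
Share of windows of 50 bp to either side of a point that hold each motif on either strand (x axis, percent) with the exact 95% interval as the bar. Red is the members at the summit, grey the members 500 bp to the higher coordinate and green the centres of divergent gaps without a region; red and grey overlap for the E-box (34.4% and 30.9%) and lie apart for the CA repeat (14.1% and 2.29%).

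The motif shares did not set members apart from other strong regions in the same way. The GC box was at 9.16% of member summits, against 8.96% of promoter regions of 1 strand, 5.68% of the other regions and 2.29% of gaps without a region. For the CA repeat the shares were 14.1%, 13.5%, 10.3% and 4.44% in the same order, and for the GAGA repeat 14.1%, 20.4%, 14.6% and 6.38%. The TATA box was at 3.05% of member summits, 2.68% of promoter regions of 1 strand and 2.40% of the other regions, and at 14.9% of gaps without a region. Members with a GC box had a median signal value of 101.5 and 17 of 24 were in the optimal list, while the 238 without one had 68.5 and 77 were in it. Since membership of that list largely went with the pooled signal value, the counts are not separate from the medians. 9 of the strongest 20 members had a GC box and 10 an E-box.

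GC-rich hexamers led a ranking of all 2080 hexamers (each pooled with its reverse complement) by how far the share of summits exceeded the average share in the flanks. GCGCAC came first, at 44 summits (16.8%) against 1.34% of flanks, 6.70% of promoter regions of 1 strand and 2.57% of gaps without a region. AAAAAT came last, at 27.9% of summits against 50.2% of flanks and 55.3% of gaps without a region. This ranking carries no test.

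The stretch shown in capitals in the first sequences was picked from the members after this ranking and the summit sequences were seen, so its counts are a description with no test. GCGGC followed 4 bases later by TTGC was within the summit window of 17 members (6.49%), in 1 higher and 0 lower flanks. It was found in 0.706% of promoter regions of 1 strand, 0.0676% of the other regions, 0.278% of gaps without a region and 0.160% of windows of the same length 150 bp upstream of all 19973 coding genes. The count depended on the spacing: of 0 to 12 bases between the parts, 4 bases gave 17 members, 2 bases gave 4, and 8 and 10 bases gave 3 each. With 2 to 4 bases allowed there were 21 members (8.02%). Their median signal value was 102, against 68.2 for the 241 others, and 15 of 21 were in the optimal list, against 79 of 241. Membership of the optimal list largely went with the pooled signal value, so the second comparison adds no separate support to the first. In 17 of the 21 a copy was centred within 25 bp of the summit, with a median distance of 9 bp over all 21, and 7 of the strongest 20 members were among them.

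The members with the stretch beyond those printed were varied. dnj-29/ndua-2, spd-5/npp-6 and hxk-2/cdk-9 had pooled values of 178, 173 and 134. cdk-9 encodes a kinase of transcription elongation and hxk-2 a hexokinase. F49C12.9/rpn-7 (105), with a proteasome lid subunit, let-504/srrt-1 (102), mig-22/mtss-1 (101.3) and clec-53/uba-5 (89.9) followed. The weakest were rbm-3.2/ubc-12 (61.3), where the spacing was not 4 bases, and fbxc-44/C16A11.2 (55.2), which had no region in replicate 2. Across the genome the stretch with 4 bases between its parts occurred 825 times on either strand, and 22 of these (2.67%) lay inside members, which cover 0.115% of the genome. 50 occurrences (6.06%) lay inside the 5000 strongest regions, which cover 2.21%, so most occurrences had no strong region.

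Other choices were looked at before this stretch was taken, and they gave related counts. There were 7 pairs of part sequences, with 0 to 8 bases between the parts, and 8 single sequences. GCGC and TTGC gave the highest count, 52 members (19.8%), against 4 higher and 2 lower flanks and 4.94% of promoter regions of 1 strand. GCGGC and TTGC gave 23 members at that range of spacings, GCGCG and TTGC 25, and CGGC and TTGC 25. TTGCAA alone was at 34 summits, and in 22 higher and 9 lower flanks.

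A second sequence that stood out in a ranking of 8-base sequences, also picked after it was seen, was not part of that stretch. CTAGGCCA was ranked second, at 15 summits (5.73%) and in 0 flanks on both sides, which with 262 windows allows a share of up to 1.40% (exact 95% interval). It was in 2.12% of promoter regions of 1 strand, 0.676% of the other regions and 0.555% of gaps without a region. None of the 15 held the stretch of GCGGC and TTGC. Their median signal value was 84.1, and 7 were in the optimal list. They included cux-7/C07H6.2 (165), F25H9.6/F25H9.7 (106), sws-1/mrps-35 (105), rps-23/dpm-3 (90.7) and C47E8.4/hsp-90 (65.8).

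The paired genes were described by 27 lists of gene families and processes. The 495 paired genes are 8.47% of the 5842 coding genes with a divergent partner within 2000 bp. Genes with a symbol of letters and a number made up 324 of 3350 (9.67%), and genes with a sequence name only 171 of 2492 (6.86%). The rule used the positions of these genes, so the list counts are set beside that background and not tested, and a gene can be in a list for its name alone. The share of gaps with a member also varied with their width, from 14.1% at 250 to 500 bp to 3.38% at 1000 to 2000 bp. Gap widths were not compared between the lists, and their part in the list shares was not tested.

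Genes for protein folding, chromatin and translation had the highest shares. Of the chaperone and heat shock genes with a divergent partner, 14 of 36 were paired to a member (38.9%, exact 95% interval 23.1 to 56.5). Among the chaperones, dnj-29 had 178 and hsp-60 158, and dnj-28, a further J-domain protein, had 99.2 in the pooled list, 44.9 in replicate 1 and 57.3 in replicate 2. Of the chromatin regulator genes, 9 of 29 were paired (31.0%, exact 95% interval 15.3 to 50.8), led by lin-35. jmjd-1.2, a histone demethylase, had 129 in the pooled list, 66.7 in replicate 1 and 64.3 in replicate 2, and lin-61, a repressor with malignant brain tumour repeats, had 96.4. Of the translation factor genes, 6 of 21 were paired (28.6%), and of the aminoacyl-tRNA synthetase genes 4 of 15 (26.7%). iff-2, initiation factor 5A, had 93.6, the elongation factor gene eef-1A.1 77.1 and eef-2 73.2. aars-1 had 64.6 and tars-1 61.6, far below ears-2.

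The other lists of genes used in most cells had lower shares. The respiratory chain and mitochondrial import genes and the ER genes both had 6 of 29 (20.7%). None of the genes so listed had a member in the optimal list. Of these, mev-1, of succinate dehydrogenase, had 84.9 and pdi-1, a protein disulfide isomerase, 84.3. The lists go by symbol and leave out ndua-2, of respiratory complex I, and dad-1, of the ER. The members at ndua-2 (178) and dad-1 (153) were in the optimal list. The cytosolic ribosomal protein genes had 10 of 51 (19.6%), led by rps-19 with 111 in the pooled list but 30.5 in replicate 1 and 80.4 in replicate 2, then rpl-15 (108) and rps-23 (90.7). The list of DNA replication and cell cycle genes, which takes in cdk-9 (134) by its symbol, had 10 of 54 (18.5%). In it mcm-10, of DNA replication, had 108 and bub-1, of the spindle checkpoint, 96.4. Vesicle traffic genes had 8 of 49 (16.3%), with vps-51, snx-13 (107) and vps-32.1 (86.5). Mitochondrial ribosomal protein genes had 4 of 30 (13.3%), polymerase and Mediator genes 3 of 23 (13.0%) and splicing factor genes 4 of 33 (12.1%). Ubiquitin genes had 9 of 121 (7.44%), led by fbxb-85 and ubc-6 (121), and proteasome subunit genes 1 of 24 (4.17%), which was rpn-7.

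Among lists of genes of differentiated tissues, the exact 95% interval lay below the background of 8.47% for the intestine list alone. Of the intestine genes 3 of 161 were paired (1.86%, exact 95% interval 0.386 to 5.35), whereas the intervals of the other lists named in this paragraph include the background. The intervals are a description, not adjusted for the 27 lists. They treat genes as independent, though both genes of a pair can be in the same list. Of the neuron and synapse genes 0 of 31 were paired, which allows a share of up to 11.2% (exact 95% interval). Cuticle and molting genes had 1 of 41 (2.44%), ciliated neuron genes 1 of 24, collagen col genes 2 of 44 (4.55%, exact 95% interval 0.555 to 15.5), nuclear hormone receptor genes 2 of 46 and germline genes 4 of 86 (4.65%, exact 95% interval 1.28 to 11.5). mex-1, a germline RNA-binding protein gene, was among the strong ones, with 147 in the pooled list, 75.9 in replicate 1 and 73.2 in replicate 2. Muscle genes had 1 of 8 (12.5%, above the background), which was myo-2, and the list of other transcription factor genes had 1 of 23, which was ztf-8. Homeobox genes had 2 of 14 and bHLH genes 1 of 6. That gene, aha-1, had 70.8 in the pooled list but 22.9 in replicate 1 and 45.7 in replicate 2. Of the pharynx genes, 2 of 29 (6.90%) were paired to a member. myo-2, a myosin heavy chain of pharyngeal muscle, had 74.0 in the pooled list, 37.96 in replicate 1 and 38.2 in replicate 2, with the summit at chrX:12467846, 215 bp from its start site and 929 bp from that of cdf-2. kel-1, known from pharyngeal gland cells, had 61.6 in the pooled list, 22.4 in replicate 1 and 36.9 in replicate 2, in the promoter shared with tars-1, with the summit in an intron 156 bp from the start site of kel-1. Neither was in the optimal list, and both were near or below the median of all members.

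**Figure D5:**
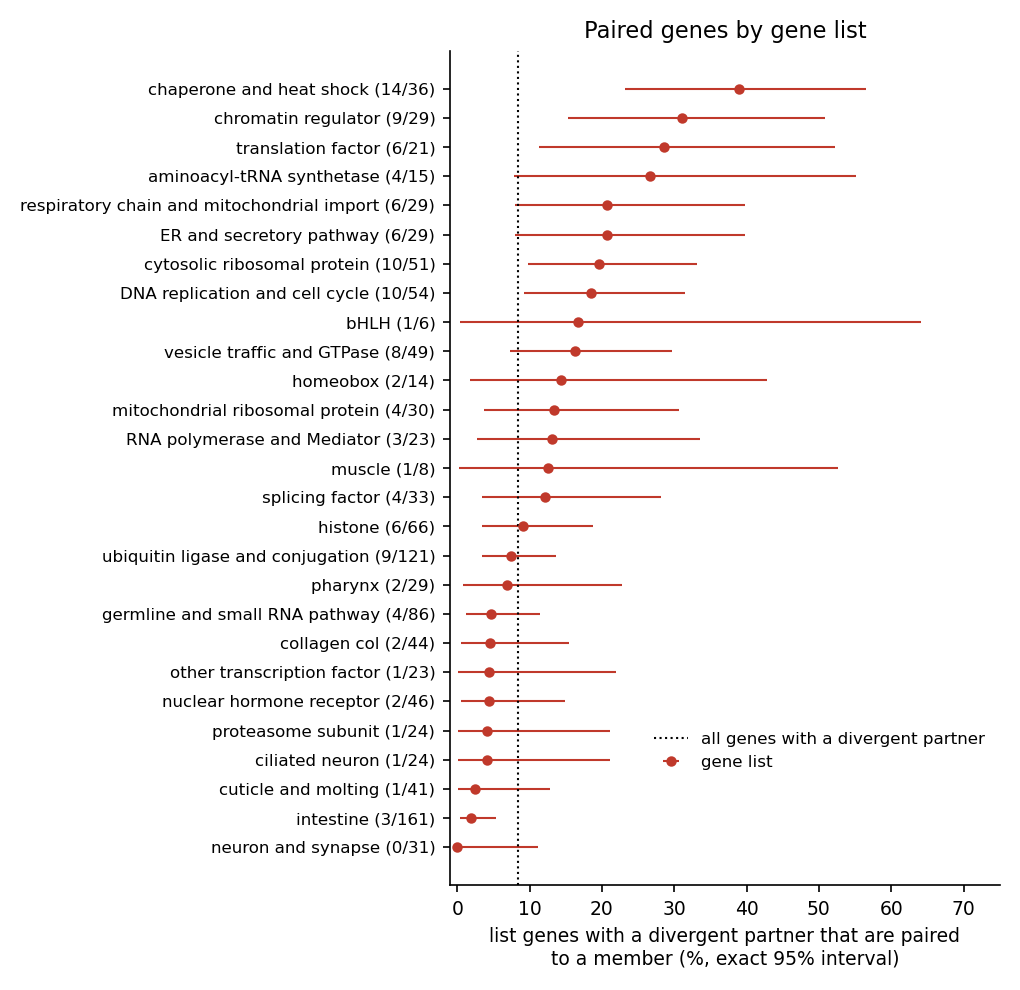
Share of each list's genes with a divergent partner that were paired to a member (x axis, percent) with the exact 95% interval as the bar; the counts are in the row names and the dotted line is the share over all genes with a divergent partner, 8.47%. Chaperone and heat shock genes are at the top with 38.9%, and neuron and synapse genes at the bottom with 0 of 31.

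Both genes of a pair shared a gene list or the stem of their symbol in 10 members, a count by name that misses relatives without a shared symbol. Histone genes made up 4 of them: his-67/his-68, an H4 and an H2A gene, had 123 in the pooled list, 57.3 in replicate 1 and 61.1 in replicate 2, and his-61/his-62 had 2 members with 97.1 and 87.1. his-60/his-59 was the weakest member of all. All histone genes together had 6 of 66 (9.09%), near the background of 8.47%, and reads of near-identical histone genes may be placed at the wrong copy, which the lists do not show. hsp-16.2/hsp-16.41, a pair of small heat shock protein genes 221 bp apart, had 65.2 in the pooled list, 34.9 in replicate 1 and 21.9 in replicate 2. rsp-2/rsp-1, for splicing factors of the arginine/serine-rich class, had 60.5, 30.3 and 31.5 in the same order. sec-61.B/trap-3, whose products act at the translocon of the ER, had 62.1, 37.6 and 38.8. tag-266/tag-267 (64.8), fbxb-93/fbxb-56 (56.7) and far-1/far-2 (55.8), the last for lipid-binding proteins, were the others. Outside this count, and chosen after its values were seen, F44E5.4/F44E5.5 is a pair whose products RefSeq gives the same heat shock protein name. It had 69.8 in the pooled list, 34.5 in replicate 1 and 37.7 in replicate 2. Outside the histone pairs his-67/his-68 and his-61/his-62, none of these members was in the optimal list.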

How the data were processed

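Regions came from narrowPeak lists of 2 replicates, of both pooled, and of an optimal set of 912 regions. Per the README texts beside the lists, the authors made each replicate list and the pooled list from alignments and a control, and the optimal list by IDR. Neither aligner nor peak caller, with their settings, is given in the sources used here. A region carries a signal value, a score deposited by the authors with no stated scale, a deposited −log10 q-value and a deposited summit offset in bp. The lists give no read counts. Sequencing depth is therefore unknown, and intervals cover the counting of regions, genes or windows only. The replicates are called biological in the labels.

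Regions were set against the Ensembl release 115 annotation of WBcel235 and the NCBI genome of that assembly, whose coordinates are those of ce11. The nearest start site on each strand gave a member's gene pair. A replicate value is that of the strongest overlapping region (at least 1 bp). Motifs were tested with the exact McNemar test and Benjamini-Hochberg adjustment over 8 motifs, with a threshold of 0.05, after the code was tested on simulated data. Intervals are Clopper-Pearson at 95%, or from order statistics for medians. Python 3.11.15, numpy 2.4.6, scipy 1.17.1 and matplotlib 3.10.9 were used. Protein names are RefSeq's or textbook knowledge.

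The members, motifs and gene lists were chosen with earlier results of these data known. Genes were named by rule: both genes of the 20 strongest members, up to 3 genes of each list, up to 15 members whose genes share a list or symbol stem, and the regions on both sides of the limit. The sequence stretches, the members listed with them and the others so described were chosen after their values were seen. Lists for the older build ce10 were not used. Alternatives were fewer or more regions, other windows, flanks and start sites, single replicates and members in the optimal list.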

Additional observations from a re-analysis of the deposited data

How the results depend on the processing

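Of 64 recomputed values, 49 stayed within their limits. The number of members was 159 among the 2500 strongest regions, 449 among the 10000 strongest, 151 with 500 bp upstream in place of 1000 and 94 in the optimal list; leaving out a replicate in turn gave 239 to 256. The E-box difference between summits and flanks, 3.44 percentage points, was -2.67 with the flank 1000 bp to the lower coordinate (adjusted p = 0.745, exact McNemar test), and no alternative brought it past the threshold, with adjusted p from 0.122 to 1. Leaving out a replicate in turn gave 4.69 to 7.53 points. The number of motifs past the threshold, 5, was 6 with the 10000 strongest regions, where AGATAA also passed (adjusted p = 0.0102, exact McNemar test), 3 with the 2500 strongest, 3 with the flank 1000 bp to the higher coordinate and 2 in the optimal list; it was 2 to 5 with a replicate left out. GAGAGA passed in 10 of 12 alternatives and TAATTA and TATAAA in 7 each. Among values without a test, the share in the optimal list was 54.7% among the 2500 and 22.7% among the 10000 strongest, the share of summits between start sites 91.8%, 78.6% and, in the optimal list, 94.7%, and the median distance of start sites 383 bp with 500 bp upstream. The cause was not tested where the regions changed. No paired analysis was possible because the series has 1 group and the lists give no comparison between groups.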
